A study of Mus musculus with 34 samples.

Results

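The genes described here are 40 mouse genes that build and acidify the lysosome, taken by exact gene name from the 2 deposited count tables of a mouse liver series. They fall into 5 classes: 10 cathepsins and related peptidases (Ctsa, Ctsb, Ctsc, Ctsd, Ctsh, Ctsk, Ctsl, Ctss, Ctsz and Lgmn), 10 other hydrolases and their cofactors (Gla, Glb1, Gm2a, Grn, Gusb, Hexa, Lipa, Naglu, Npc2 and Psap), 5 membrane proteins (Lamp1, Lamp2, Laptm5, Mcoln1 and Scarb2), 12 subunits of the vacuolar proton pump, and the 3 transcription factors Tfeb, Tfe3 and Mitf. Of the 40, 39 were found in both tables, which together list 28598 gene names. Atp6v1c1, a subunit of the pump's peripheral domain, was matched in neither table and is not analysed here.

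Lysosomes digest proteins, lipids and sugars that reach them by endocytosis, phagocytosis or autophagy. The vacuolar ATPase pumps protons across the lysosomal membrane, and the acid it makes is needed by the cathepsins and hydrolases inside. Tfeb, Tfe3 and Mitf are related factors known to bind the CLEAR element, an extended E-box in the promoters of lysosomal genes, and liver macrophages are known for a large degradative compartment that clears debris, iron and dying cells.

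The study sorted hepatocytes and macrophages from the livers of mice that lacked Yap and Taz in biliary epithelial cells, and of their controls, with or without acute carbon tetrachloride (CCl4), a toxin that kills pericentral hepatocytes. Knockout mice carried Opn-iCreERT2, a tamoxifen-inducible Cre under the osteopontin promoter, together with floxed alleles of both genes (Yap fl/fl, Taz fl/fl), and control siblings carried the same floxed alleles without Cre, all on a mixed B6;129P background. All mice, controls included, received tamoxifen at 1.6 mg/kg on 5 days at 7 to 8 weeks of age and then a 3-week washout. Mice given CCl4 received 1 ml/kg and were harvested 48 h later, and the labels describe no vehicle injection for the rest. Hepatocytes, enriched by slow centrifugation and Percoll and sorted only against dead cells, came from 9 controls (6 untreated, 3 given CCl4) and 9 knockouts (5 untreated, 4 given CCl4). Macrophages, sorted as living F4/80+ CD45+ cells, came from 4 mice in each of the same 4 conditions. In all there were 34 libraries of QuantSeq 3′ tags from 19 numbered mice, 15 of which gave both cell types. For library 15 of the hepatocytes and library 11 of the macrophages, both in the control group given CCl4, one label field names the knockout and the others the control, and they were kept as controls.

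Totals ranged from 931496 to 7535053 counts in hepatocytes and from 596380 to 5128587 in macrophages, so that 3 counts, the upper limit that a count of 0 allows, correspond to 0.398 to 5.03 CPM (counts scaled to the size of the library). Levels are given as CPM scaled by edgeR's TMM factors. The deleted genes do not check the labels here, since Cre is driven in biliary cells: Yap1 ranged from 36.9 to 51 CPM in hepatocytes of both genotypes without CCl4, and Wwtr1 (Taz) from 11.5 to 39.4 CPM over all hepatocyte libraries. After CCl4, Yap1 was at 45.6 to 53.4 CPM in control and 53 to 75.3 CPM in knockout hepatocytes. All 12 hepatocyte markers were detected in every hepatocyte library, with summed levels of 50705 to 127370 CPM. In macrophages the 12 Kupffer cell markers summed to 5689 to 20453 CPM and the hepatocyte markers to 409 to 30861 CPM, so hepatocyte RNA was present in the sorted macrophages to a varying degree. The macrophages of knockout mice 13 and 14 after CCl4 stood apart, with hepatocyte marker sums of 30861 and 27025 CPM against 2893 and 2728 CPM in mice 17 and 18 of the same group. The file names carry running numbers in 2 ranges, and the low range holds only controls (5 hepatocyte and 2 macrophage libraries), so results were also computed with this range as a term and within the high range alone. Nothing in the labels says what the ranges mean.

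The members' genes lie on 19 chromosomes in GRCm38. QuantSeq reads the 3′ end of a transcript, mostly 3′ untranslated sequence. In the last 500 bases, Ctsd overlaps Gm49369 on the same strand and 7 members overlap a gene on the other strand (Ctsa, Ctsb, Ctsz, Grn, Lamp1, Atp6v0b and Atp6v1e1). Reads at these ends may be shared with the neighbour, and the strand setting of the counting is not given in the sources used here. Atp6v0c has named pseudogenes, and its low counts (0 to 4.25 CPM in hepatocytes) are uncertain.

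Promoters were compared in the RefSeq table for GRCm38.p6, which gives 300 bases around each gene's start and has a window for 35 of the 40 members. The palindrome TCACGTGA, which contains the E-box core CACGTG and reads the same on both strands, was in the window of 7 members (20% of 35), against 1.12% of the 27025 genes with a window. These were Ctsa, Ctsd, Gla, Mcoln1, Atp6v0d1, Atp6v0e and Atp6v1a. CACGTG alone was in 13 members (37.1%) against 8.09% of genes, and TCATGTGA, searched on both strands, in 4 members (Ctss, Gla, Grn and Atp6v0c, 11.4%) against 1.15%. The longer palindrome of 10 bases, with a G before TCACGTGA and a C after it, was in 0 of the 35 members, against 0.37% of genes. With so low a share among all genes, 35 windows are too few to tell the members from the background for this form. The sites of the 4 members that hold TCACGTGA upstream of the start and passed the test in the most comparisons are printed here with flanks, 5′ to 3′ on the gene's strand and with TCACGTGA in capitals. The stretches are chr7:142387908-142387937 (minus strand) for Ctsd, chr2:164833743-164833772 (plus) for Ctsa, chr16:44139373-44139402 (minus) for Atp6v1a, and chrX:134601215-134601244 and chrX:134601182-134601211 (minus) for the 2 sites of Gla. The motif begins 99 bases upstream of the RefSeq start used for the window in Ctsd, 13 in Ctsa, 132 in Atp6v1a, and 228 and 195 in Gla. The gene spans given here are from GENCODE, whose outermost starts differ: the sites of Ctsd, Ctsa and Atp6v1a lie inside these spans, and those of Gla lie upstream of its span.
Ctsd: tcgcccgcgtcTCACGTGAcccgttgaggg
Ctsa: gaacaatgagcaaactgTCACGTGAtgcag
Atp6v1a: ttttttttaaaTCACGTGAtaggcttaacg
Gla, site 1: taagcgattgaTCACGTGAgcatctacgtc
Gla, site 2: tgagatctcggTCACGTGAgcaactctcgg
A match of these letters is a description of the window and not a measured binding site. These 4 genes were picked by their calls, most of which are between the cell types, so those calls are no separate result about them. After CCl4 in control mice the macrophage level of Ctsd rose, while Ctsa, Atp6v1a and Gla did not pass the test.

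Macrophages held more RNA of most lysosomal genes than hepatocytes did. In control mice without CCl4, 29 of the 39 tested members were higher in macrophages and 4 were lower (quasi-likelihood test of edgeR over 12054 genes, with p adjusted by Benjamini-Hochberg and a threshold of 0.05), and the members' median log2 difference was 1.47. Of all tested genes 62.8% passed this test (34.3% higher and 28.5% lower) and their median was 0.14, so passing is common and the members differed from the background mainly in direction. The groups did not overlap for 25 members higher and 3 lower in macrophages, against 22.4% and 19.8% of all genes. By class, 8 cathepsins of 10 were higher (class median 1.95), 7 hydrolases and cofactors of 10 (1.73), 4 membrane proteins of 5 (0.96), 7 pump subunits of 11 (0.81) and 3 transcription factors of 3 (1.84).

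**Figure D1:**
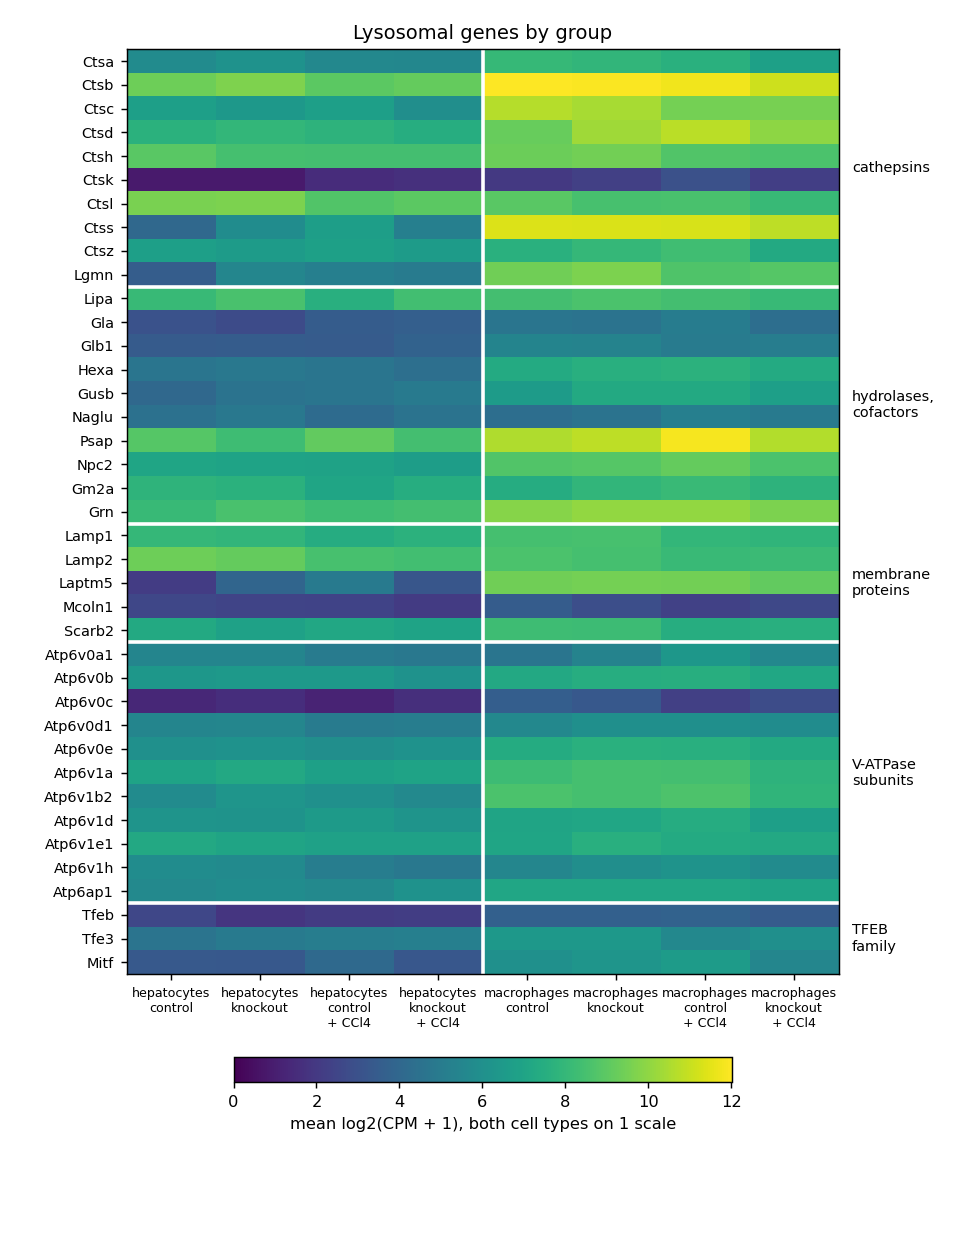
Heat map of the mean log2(CPM + 1) of the 39 listed members (rows, ordered by class) in the 8 groups (columns, hepatocytes and macrophages, without and with CCl4, control and knockout), on the scale shared by both cell types. Yellow marks high and dark blue low levels: most rows are lighter in the 4 macrophage columns, and Lamp2 and Ctsl are among the rows that are not.

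The largest differences were in Laptm5, Ctss and Lgmn. Laptm5 (chr4:130913125-130936141), a membrane protein of leukocyte lysosomes, ranged from 0.817 to 15.2 CPM in the 6 control hepatocyte libraries without CCl4 (median 3.29) and from 610.4 to 836 CPM in the 4 macrophage libraries, on the scale shared by both cell types. Its log2 difference was 7.40 (SE 0.59, edgeR adjusted p = 6.59e-12). Ctss (chr3:95526786-95556403), the cathepsin that trims the invariant chain of MHC class II, ranged from 2.46 to 114 CPM in these hepatocytes and from 2321 to 2985 CPM in macrophages (log2 difference 6.41, SE 0.73, edgeR adjusted p = 1.16e-08). Lgmn (chr12:102394084-102439813), the asparaginyl endopeptidase that also activates cathepsins, ranged from 3.35 to 24.7 CPM against 569 to 985 CPM (5.89, SE 0.54, edgeR adjusted p = 1.31e-10). In none of these genes did the cell types overlap, and the hepatocyte libraries spread far more than the macrophage libraries. Ctsc, which activates serine proteases of immune cells, was higher by 3.86 (SE 0.31) and Hexa, a subunit of β-hexosaminidase, by 2.72 (SE 0.22). Hexa was even among control hepatocytes, at 24.1 to 25.5 CPM, against 139 to 202 CPM in macrophages.

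Lamp2, Ctsl, Atp6v0a1 and Gm2a were the members with more RNA in hepatocytes. Lamp2 (chrX:38401357-38456454), a major glycoprotein of the lysosomal membrane with a role in autophagy, was at 489 to 787 CPM in control hepatocytes without CCl4 and at 353 to 439 CPM in macrophages, a log2 difference of -0.76 (SE 0.16, edgeR adjusted p = 0.000174). Ctsl (chr13:64359337-64370890), a broad endopeptidase, was at 541 to 989 against 441 to 533 CPM (-0.65, SE 0.22, edgeR adjusted p = 0.0113). Neither gene overlapped between the cell types. Atp6v0a1 (chr11:101009452-101063719), the a1 subunit of the membrane domain of the pump, was at 33 to 55.6 against 14 to 31.7 CPM (-0.79, SE 0.27, edgeR adjusted p = 0.0108), again without overlap. Gm2a (chr11:55098115-55113029), the cofactor that presents GM2 ganglioside to β-hexosaminidase, was at 184 to 268 against 159 to 196 CPM and overlapped (-0.37, SE 0.14, edgeR adjusted p = 0.0259). With the mouse number as a block Gm2a did not pass (-0.30, edgeR adjusted p = 0.163). These 4 directions are relative to the scaling: with library totals alone the median of all genes moved from 0.14 to 0.89, the differences of Gm2a and Ctsl became 0.36 and 0.07, and 35 members were higher and 0 lower. Ctsh, Lipa, Naglu, Atp6v0d1, Atp6v1e1 and Atp6v1h did not pass the test in this condition.

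**Figure D2:**
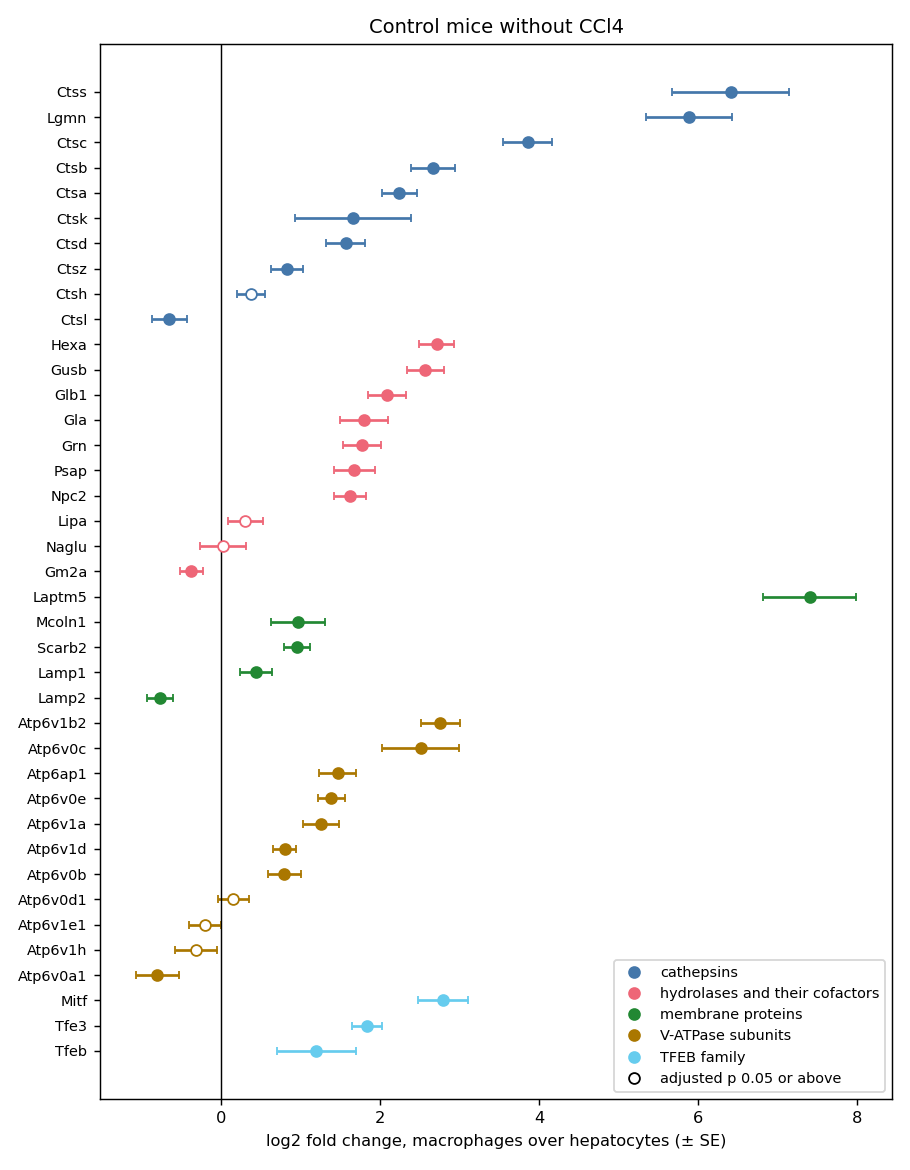
Log2 difference between macrophages and hepatocytes of control mice without CCl4 (horizontal axis, ± SE) for each of the 39 tested members (rows, coloured by class and ordered within it), with open circles for an adjusted p of 0.05 or above. Laptm5, Ctss and Lgmn lie farthest right, and Lamp2, Ctsl, Atp6v0a1 and Gm2a are the filled circles left of 0.

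Most members were also higher in macrophages in the other conditions. In knockout mice without CCl4, 31 members were higher and 2 lower in macrophages (56.5% of all genes passed, 32.1% higher and 24.4% lower), with a median of 1.53 against 0.23 for all genes. After CCl4, 33 were higher and 0 lower in control mice (46.5% of all genes, 24.1% higher and 22.4% lower, median 1.68 against 0.08), and 27 higher and 1 lower in knockout mice (50.0% of all genes, 26.8% higher and 23.3% lower, median 1.09 against 0.05). Ctsl was the member that stayed lower in knockout macrophages after CCl4, at -0.89 (edgeR adjusted p = 0.0028). In control mice after CCl4 all 10 hydrolases and cofactors and 10 of 11 pump subunits were higher. Atp6v0a1 and Gm2a were on the macrophage side, at 46.9 to 104 against 29.3 to 32.5 CPM and at 250.5 to 302 against 128 to 141 CPM.

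The transcription factors were higher in macrophages at low absolute levels. Tfeb (chr17:47737030-47792419) was at 1.12 to 11.4 CPM in control hepatocytes without CCl4 and 8.16 to 20.8 CPM in macrophages, which overlapped. Its log2 difference was 1.20 (SE 0.50, edgeR adjusted p = 0.0359) there, where it did not pass with the mouse number as a block (1.32, 0.0595) and passed in 15 of 19 fits that each left out 1 mouse. The difference was 1.63 in knockout mice without CCl4, 1.97 in control mice after CCl4, and 1.21 in knockout mice after CCl4, where it did not pass (edgeR adjusted p = 0.0935). Tfe3 (chrX:7762560-7775202) was at 17.4 to 29 against 69.6 to 112 CPM (1.84, SE 0.19, edgeR adjusted p = 1.09e-09), and the difference was 0.55 in control mice after CCl4 (edgeR adjusted p = 0.045). The last call was near the threshold: it held in 8 of the 19 fits without 1 mouse and was lost with the block (0.48, edgeR adjusted p = 0.131). Mitf (chr6:97807052-98021349) was at 4.47 to 17.8 against 39.7 to 86.7 CPM, a difference of 2.79 (SE 0.32, edgeR adjusted p = 6.13e-09) that was 2.40 to 3.04 in the other conditions. Tfec, another gene of the same family that is not among the 40, was higher by 7.02 (edgeR adjusted p = 6.35e-12).

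Other genes of the pathway, from lists that do not overlap the 40, showed the same side for most enzymes but not for autophagy genes. In control mice without CCl4, 19 of 30 other lysosomal hydrolases and cofactors were higher in macrophages and 2 lower. These included Pla2g15, a lysosomal phospholipase, at 3.66, Man2b1, an α-mannosidase, at 2.51 and Smpd1, acid sphingomyelinase, at -1.62. Of 19 other membrane proteins and carriers 11 were higher and 3 lower, led by the metal transporter Slc11a1 at 7.33 and Cd68 at 6.55. Of 11 other pump genes 3 were higher and 1 lower: Tcirg1, the a3 subunit, was at 1.77, Atp6ap2 at 1.45 and Atp6v0d2, the d2 subunit, at -1.47. Of 19 autophagy genes 3 were higher and 10 lower, among them Gabarapl1, a conjugated autophagosome protein, at -2.11 and Nbr1, a cargo receptor, at -0.82. Of all genes 34.3% were higher and 28.5% lower in this condition. How far the directions of these other genes depend on the scaling was not tested.

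In hepatocytes, CCl4 lowered the RNA of several abundant lysosomal genes of control mice and raised that of Laptm5, Lgmn and Gusb. Of 36 tested members 3 rose (Laptm5, Lgmn and Gusb) and 5 fell (Lamp2, Gm2a, Ctsl, Ctsh and Lamp1), which is 8 of 36 where 27.4% of all genes passed the same test (13.7% higher and 13.7% lower), so the share was close to the background. The members' median log2 change was -0.00, against -0.01 for all genes, and 18 of 36 were above 0. The 2 groups did not overlap for 2 members higher and 5 lower after CCl4, where 11.9% of all genes were apart in each direction. No proton pump subunit passed (0 of 10, 4 above 0), nor did Tfeb, Tfe3 or Mitf. Ctsk, Mcoln1 and Atp6v0c were too low in hepatocytes to be tested.

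Lamp2 ranged from 406 to 609.7 CPM in the 6 control hepatocyte libraries without CCl4 (median 537) and was at 312, 280.1 and 289 CPM in the 3 after CCl4 (mice 12, 15 and 16). The groups were fully apart, with a log2 change of -0.84 (SE 0.18, edgeR adjusted p = 0.00138). Ctsl ranged from 424 to 793 CPM (median 621) before and was at 399.9, 298 and 353 CPM after CCl4 (-0.81, SE 0.21, edgeR adjusted p = 0.00658). Gm2a ranged from 148 to 222 CPM (median 173) and was at 105, 116 and 106 CPM after CCl4, again without overlap (-0.71, SE 0.17, edgeR adjusted p = 0.00291). Ctsh, an aminopeptidase, ranged from 346 to 490.4 CPM and was at 251, 295 and 281 CPM (-0.51, SE 0.17, edgeR adjusted p = 0.0284). Lamp1, the companion glycoprotein of Lamp2, overlapped between the groups and fell by 0.54 on the log2 scale (SE 0.19, edgeR adjusted p = 0.0348). In the same libraries 8 of 12 hepatocyte markers fell, with Cyp2e1, the pericentral enzyme that activates CCl4, at -3.93.

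Laptm5 ranged from 0.633 to 12.6 CPM (median 2.58) without CCl4 and was at 26.4, 24.2 and 21 CPM after it, a log2 change of 3.00 (SE 0.68, edgeR adjusted p = 0.0029). Lgmn ranged from 2.69 to 19.8 CPM (median 7.51) and was at 31.1, 15.8 and 49.7 CPM, so 1 treated library lay within the untreated range (1.84, SE 0.47, edgeR adjusted p = 0.00715). Without the library of mouse 16 its adjusted p was 0.0522. Gusb (chr5:129989011-130003049), β-glucuronidase, rose by 0.71 (SE 0.26, edgeR adjusted p = 0.0458), from 9.64 to 17.9 CPM without CCl4 to 20.4, 15.2 and 25.9 CPM after it. Markers of several other cell types moved with these genes. In the same comparison general leukocyte markers rose in 5 of 10 tested (median 2.25), stellate cell markers in 4 of 9 (2.16), biliary markers in 2 of 5 and recruited macrophage markers in 2 of 3 (1.11). The recruited macrophage list holds 12 genes, of which only 3 were tested here, and it shares Spp1 with the biliary list. Kupffer cell markers rose in 4 of 11 (median 1.91, lowest -1.22), and 10 of 11 lay above 0. The 9 Kupffer cell markers on no other marker list summed to 110 to 403 CPM (median 251) in control hepatocytes without CCl4. After CCl4 these 9 summed to 403 to 424 CPM (median 412). A subset of 7 (Clec4f, Timd4, Vsig4, Marco, Cd5l, Folr2 and Cd163), chosen after their values were seen, showed a wider contrast. These summed to 4.86 to 104 CPM in control hepatocytes without CCl4 and to 168 to 177 CPM after it. Reads were also pooled over the libraries of a group, so deep libraries weigh more and the ratios carry no spread. Per 100 pooled reads of these 7 genes, control hepatocytes held 8.48 Laptm5 reads without and 14.1 with CCl4. Sorted macrophages of the same conditions held 8.19 and 13. For Lgmn the numbers were 26.4 and 16.3 in hepatocytes and 7.63 and 8.14 in macrophages. The part of RNA from macrophages or the other cell types in these changes was not tested, and in bulk samples of sorted cells, more cells of a type and more RNA per cell cannot be told apart.

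Within the high file range alone, which leaves 3 untreated and 1 treated control library of hepatocytes, 0 members passed (edgeR), and the lone treated library is assumed there to vary like the other groups. There the log2 changes were -0.72 for Lamp2, -0.89 for Ctsl, -0.72 for Gm2a, 1.78 for Laptm5 and 2.01 for Lgmn, with adjusted p from 0.143 to 0.386. With the range as a term in the fit 9 members passed, all 8 above among them. Lamp2, Ctsl, Gm2a and Laptm5 passed in all 18 fits that each left out 1 library. Ctsh passed in 13 of them, Lamp1 in 10 and Gusb in 9. Fits without a knockout library keep every library of this comparison and move mainly the shared spread. Ctsh was lost without control mouse 2, 7, 12, 15 or 16. Lamp1 was lost without control mouse 2, 7, 8, 12, 15 or 16, or knockout mouse 20 or 21. Gusb was lost without control mouse 2, 7, 8, 9, 12 or 16, or knockout mouse 4, 17 or 18. With library totals alone in place of TMM, which moved the median of all genes from -0.01 to 0.42, 10 members were higher and 1 lower. The falls of Ctsl, Gm2a, Ctsh and Lamp1 then did not pass, and that of Lamp2 did.

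**Figure D3:**
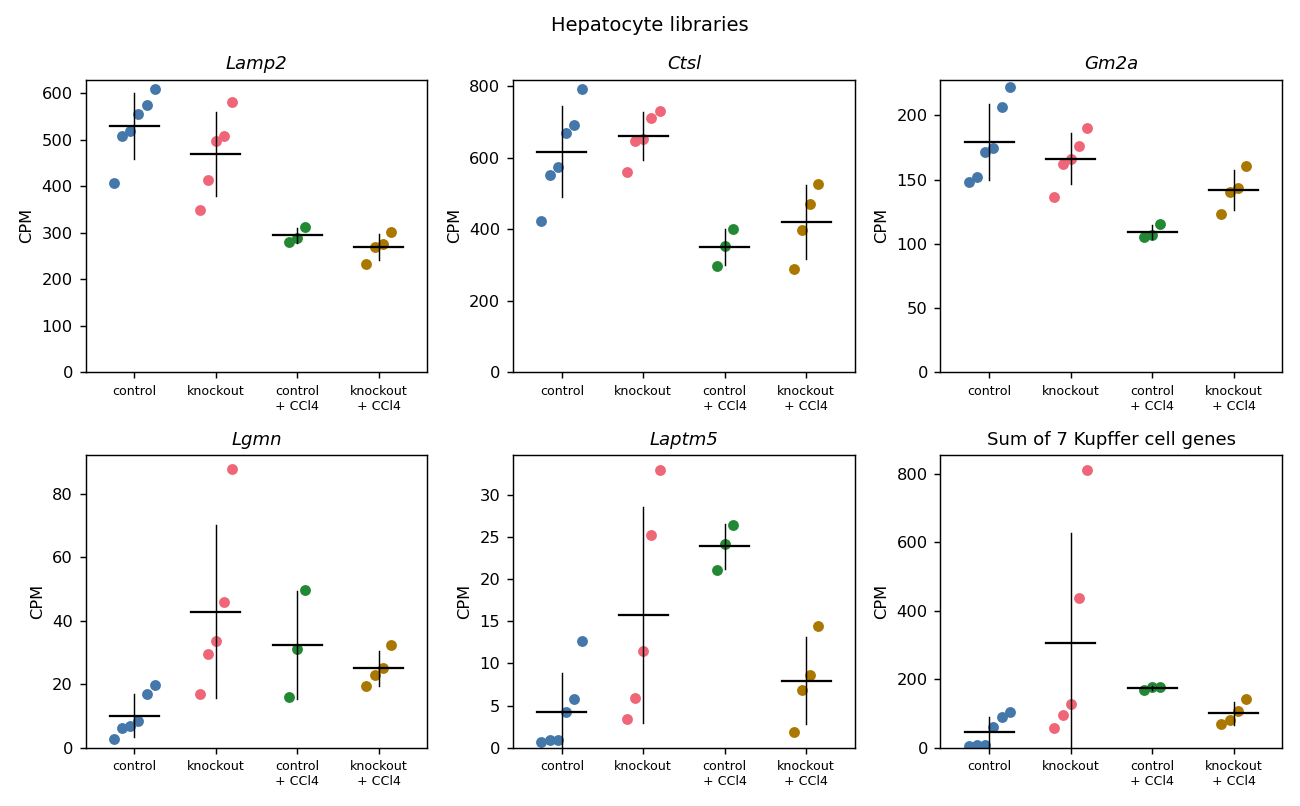
CPM (vertical axis, linear) in each hepatocyte library (dots) by group (horizontal axis) for Lamp2, Ctsl, Gm2a, Lgmn, Laptm5 and the sum of 7 Kupffer cell genes, with the group mean as a line and a bar of 1 SD to either side, ended at 0. Lamp2 lies at 233 to 312 CPM in all 7 libraries after CCl4 and at 349 CPM or more in all 11 libraries without it. Laptm5 and the Kupffer cell sum both lie higher in controls after CCl4 than in controls without it. The 7 genes were chosen after their values were seen. Knockouts without CCl4 reach 811.5 CPM in the sum, and their highest Laptm5 values also lie above the untreated controls.

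Pathway genes outside the 40 moved as follows in the same comparison, where 13.7% of all genes rose and 13.7% fell. The alternatives were recorded gene by gene for the members only. How far the calls below depend on the scaling or the file range was not tested. Autophagy genes fell in 7 of 19 tested and rose in 0, with Atg5, which lipidates LC3, at -0.88 (edgeR adjusted p = 0.00143) and Gabarapl1 at -1.48 (0.00215). Other hydrolases and cofactors fell in 6 of 25 and rose in 0, among them Smpd1 at -0.62 and Scpep1, a serine carboxypeptidase, at -0.55. Ppp3ca, the calcineurin subunit that can dephosphorylate Tfeb, fell by 0.65, and Flcn, a GTPase-activating protein of the amino acid sensing complex, fell by 1.13. Among membrane proteins 3 of 18 rose, including Cd63 at 4.08 (edgeR adjusted p = 5.71e-05) and Cd68, a macrophage marker, at 3.39 (0.000451). Cd63 was at 1.38 to 17.9 CPM in control hepatocytes without CCl4 and at 99, 109 and 84.8 CPM after it. In knockout mice Cd63 rose by 2.20, from 3.4 to 33.4 CPM to 54.2 to 121 CPM.

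The CCl4 comparison of knockout hepatocytes shares no library with that of controls. Here 0 of 36 members rose and 5 fell, a share equal to the background (Lamp2, Atp6v1h, Ctsl, Ctsa and Atp6v1b2), while 13.9% of all genes passed (7.03% higher and 6.85% lower), and the median log2 change was -0.24 against -0.02 for all genes, with 11 of 36 members above 0. The groups were apart for 0 members higher and 5 lower (6.64% and 6.38% of all genes). Lamp2 was at 349, 497, 508, 412 and 582 CPM in knockout mice 4, 5, 10, 20 and 21 without CCl4 and at 301, 269.6, 275 and 233 CPM in mice 13, 14, 17 and 18 after it (-0.80, SE 0.17, edgeR adjusted p = 0.00292). The groups were apart, as in controls. Ctsl was at 647, 561, 731, 652 and 712 CPM without and 527, 398, 470.3 and 288 CPM with CCl4, also apart (-0.65, SE 0.20, edgeR adjusted p = 0.0309). Atp6v1h (chr1:5070018-5162529), a regulatory subunit of the pump, was at 62.4, 42.9, 64.5, 27.9 and 31.5 CPM without and 26.4, 18.4, 26 and 17 CPM with CCl4, and every treated library lay below every untreated one (-1.09, SE 0.27, edgeR adjusted p = 0.0106). Without mouse 18 its adjusted p was 0.0554, and Ctsl did not pass without mouse 10, 14, 18 or 21. The change of Atp6v1h in controls was -0.70 and did not pass (edgeR adjusted p = 0.0571). Ctsa (chr2:164832873-164841032), the protective protein of β-galactosidase and neuraminidase, was at -0.57 (edgeR adjusted p = 0.0475) and Atp6v1b2, a catalytic-domain subunit, at -0.64 (0.0491). Both lay near the threshold: the first passed in 6 and the second in 3 of the 18 fits that each left out 1 library. With library totals alone Ctsl (-0.39, edgeR adjusted p = 0.184), Ctsa (-0.30, 0.277) and Atp6v1b2 (-0.37, 0.244) did not pass, while Lamp2 and Atp6v1h did. The interaction, which tests whether the CCl4 change differed between genotypes, passed for 0 of 36 members (0.207% of all genes), with the lowest adjusted p at 0.0912 for Laptm5. By DESeq2 it passed for 1 member, and 6 members had an unadjusted p under 0.05 in edgeR.

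Between genotypes without CCl4, Lgmn and Laptm5 were higher in knockout hepatocytes, 2 of 36 members where 7.87% of all genes passed (4.64% higher and 3.23% lower). Lgmn was at 87.8, 46, 29.4, 33.8 and 17 CPM in knockout mice 4, 5, 10, 20 and 21 against 2.69 to 19.8 CPM in the 6 controls (2.29, SE 0.44, edgeR adjusted p = 0.00625). Laptm5 was at 33, 25.2, 11.5, 5.87 and 3.4 CPM against 0.633 to 12.6 CPM (2.47, SE 0.67, edgeR adjusted p = 0.0331). Both genes overlapped between genotypes, and mice 4 and 5 had the highest values. Laptm5 did not pass without control mouse 2, 7, 8 or 9 or without knockout mouse 4 or 5, and Lgmn passed in all 18 such fits. In the same comparison 6 of 11 Kupffer cell markers were higher (median 2.59), with Marco at 4.43 and Timd4 at 3.21, general leukocyte markers were higher in 4 of 10 (2.27) and biliary markers in 2 of 5 (1.72), 0 of 9 stellate cell markers passed (1.59), and the Kupffer marker sum was 437 to 1451 CPM in knockout against 113 to 406 CPM in control hepatocytes. Slc11a1 (2.90) and Cd68 (2.87), both known from macrophages, and Asah1, acid ceramidase (1.39), were also higher. Per 100 reads of the 7 Kupffer cell genes, Lgmn reads were 26.4 in control and 13.2 in knockout hepatocytes. Laptm5 reads were 8.48 and 4.99. These ratios pool the reads of a group's libraries, so deep libraries and those rich in the 7 genes weigh more. The 7 genes summed to 811.5 CPM in knockout mouse 4 and to 58.66 to 435.6 CPM in the other knockout libraries. With the file range as a term 0 members passed, with Lgmn at 1.72 (edgeR adjusted p = 0.1) and Laptm5 at 2.05 (0.257), and within the high range alone 0 passed, with 1.76 and 1.38. Which of file range and genotype the low control values follow cannot be told apart for the low range, which holds no knockout.

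After CCl4, 0 of 36 members differed between genotypes in hepatocytes in edgeR, where 0.176% of all genes passed, 6 had an unadjusted p under 0.05, and DESeq2 also called 0. The groups were nonetheless apart for 3 members higher in knockouts (Lipa, Glb1 and Gm2a) and 6 lower (Ctsc, Ctss, Psap, Laptm5, Atp6v1d and Mitf), against 5.68% and 5.82% of all genes. Gm2a was at 140.4, 123, 161 and 143 CPM in knockouts against 105, 116 and 106 CPM in controls. Laptm5 was at 8.59, 6.89, 1.86 and 14.4 CPM against 26.4, 24.2 and 21 CPM. With 3 and 4 libraries a group, these are descriptions of the libraries.

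In macrophages of control mice, CCl4 raised the RNA of Ctsd, Psap, Gm2a, Gusb and Atp6v0a1 and lowered that of Scarb2 and Tfe3. These 7 of 39 members passed where 13.2% of all genes did (6.77% higher and 6.39% lower), and the members' median log2 change was 0.29 against -0.03 for all genes, with 25 of 39 above 0. The classes differed in sign: 9 of 10 hydrolases and cofactors and 10 of 11 pump subunits lay above 0 (medians 0.50 and 0.34), against 3 of 10 cathepsins (-0.23) and 1 of 5 membrane proteins (-0.40). Most of these members did not pass the test on their own. The groups were apart for 6 members higher and 6 lower after CCl4, against 9.54% and 9.62% of all genes.

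Ctsd (chr7:142375911-142388038), the main aspartic protease of lysosomes, was at 786, 579, 808 and 815 CPM in mice 6, 7, 8 and 9 without CCl4 and at 2084, 1517, 2725 and 3086 CPM in mice 11, 12, 15 and 16 after it. The log2 change was 1.66 (SE 0.30, edgeR adjusted p = 0.00144). Psap (chr10:60277627-60302597), the precursor of the saposins that aid sphingolipid breakdown, went from 1644, 2012, 2413 and 1753 CPM to 4147, 3382, 4702 and 7865 CPM (1.36, SE 0.30, edgeR adjusted p = 0.00636). Atp6v0a1 went from 39.7, 18.1, 35 and 32.4 CPM to 122, 59.3, 117 and 142 CPM (1.81, SE 0.32, edgeR adjusted p = 0.00141). In all 3 genes every treated library lay above every untreated one. Gm2a went from 212, 206, 207 and 246 CPM to 348, 317, 403 and 397 CPM (0.75, SE 0.18, edgeR adjusted p = 0.0115), and Gusb rose by 0.86 (SE 0.26, edgeR adjusted p = 0.0377). Gusb passed in 10 of the 16 fits that each left out 1 library and lost its call without mouse 6, 7, 8, 9, 15 or 16. Of the libraries in this comparison, only mouse 11 or 12 could be left out without losing the call. The other fits that kept it left out a knockout library, which is outside this comparison.

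Scarb2 (chr5:92441314-92506833), the membrane protein that carries β-glucocerebrosidase to lysosomes, was at 438, 417, 368 and 351 CPM without and 231, 208, 264 and 238 CPM with CCl4. The groups were apart, with a log2 change of -0.74 (SE 0.19, edgeR adjusted p = 0.0146). Tfe3 was at 96.7, 89.8, 102 and 140.5 CPM without and 68.3, 46, 67.9 and 68.4 CPM with CCl4 (-0.76, SE 0.19, edgeR adjusted p = 0.0149). Without control mouse 9 its adjusted p was 0.0573. Its relatives did not pass: Mitf was at 109, 51.2, 93.2 and 82.6 CPM and then 113, 81.8, 150.2 and 166 CPM (0.60, edgeR adjusted p = 0.25), and Tfeb at 10.2 to 26.8 and then 10.2 to 28.8 CPM (0.16, edgeR adjusted p = 0.833). With library totals alone, which moved the median of all genes from -0.03 to 0.19, 10 members were higher and 0 lower. Scarb2 and Tfe3 then kept their direction but not their call, at -0.51 (edgeR adjusted p = 0.0578) and -0.54 (0.0713).

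**Figure D4:**
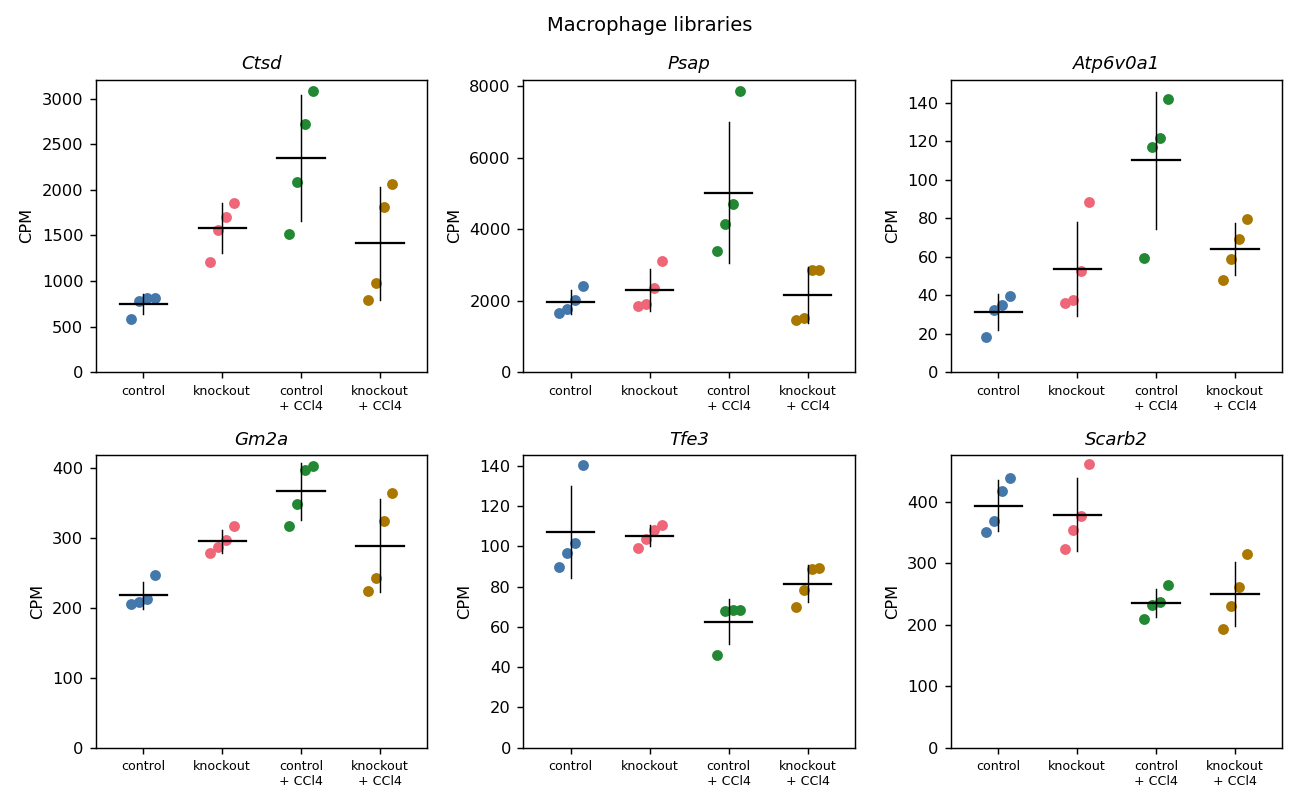
CPM (vertical axis, linear) in each macrophage library (dots) by group (horizontal axis) for Ctsd, Psap, Atp6v0a1, Gm2a, Tfe3 and Scarb2, with the group mean as a line and a bar of 1 SD to either side, ended at 0. The control group after CCl4 lies above the control group without CCl4 in the first 4 panels and below it in Tfe3 and Scarb2, and these 2 groups overlap in none of the 6 panels.

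Markers of other cell states moved in the same libraries. Recruited monocyte and macrophage markers rose in 7 of 11 (median 2.32), with Gpnmb at 4.32, F13a1 at 3.09 and Ccr2 at 2.82, and their sums were 326 to 1142 CPM without and 1603 to 2431 CPM with CCl4. Kupffer cell markers fell in 7 of 11 (median -0.99), and hepatocyte markers in 2 of 12, from sums of 18190 to 22471 CPM to 7046, 14719, 963 and 409 CPM in mice 11, 12, 15 and 16. When the hepatocyte marker level of each library was added to the fit, an alternative chosen after seeing the data, 2 members were higher (Atp6v0a1 at 1.53 and Ctsd at 0.93) and 8 lower (Ctsb, Ctsc, Ctsh, Lamp1, Scarb2, Mcoln1, Tfe3 and Atp6v1b2), with a median of -0.33. Psap at 0.65 (edgeR adjusted p = 0.0924), Gm2a at 0.44 (0.146) and Gusb at 0.19 (0.669) were then below the threshold. Sinusoidal endothelial marker sums went from 1691 to 2411 CPM without CCl4 to 417 to 1435.5 CPM with it. Biliary marker sums went from 79.2 to 180 CPM to 230 to 430 CPM, on a list that shares Spp1 with the recruited one. The part of recruited or other cells in these changes was not tested. Within the high file range alone 5 members were higher and 1 lower, and Scarb2 and Gusb did not pass there.

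**Figure D5:**
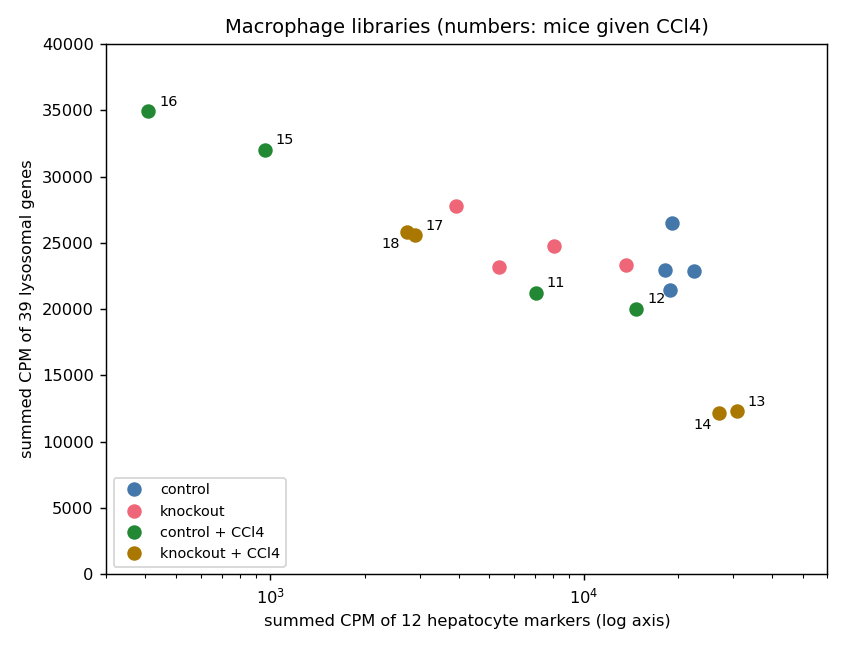
Summed CPM of the 39 members (vertical axis) against summed CPM of 12 hepatocyte markers (horizontal axis, log scale) in the 16 macrophage libraries, coloured by group, with mouse numbers beside the libraries after CCl4. Knockout mice 13 and 14 lie at the lower right, with member sums of 12303 and 12180 CPM, and control mice 15 and 16 at the upper left, with 32031 and 34923 CPM.

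Other pathway genes moved in macrophages of control mice after CCl4, where 6.77% of all genes rose and 6.39% fell. The alternatives were not recorded for these genes. Cd63 rose by 2.83 (edgeR adjusted p = 0.000193), from 15.3 to 81.1 CPM to 169.7 to 466 CPM, the 1 of 19 other membrane proteins that passed. Among other pump genes Tcirg1 (0.96) and Atp6v0d2 (1.63) rose and 10 of 11 lay above 0 (2 of 11 passed). Igf2r, the mannose 6-phosphate receptor that sorts hydrolases, rose by 1.14. Flcn fell by 1.41 and its partner Fnip2 rose by 1.03, and Nbr1 (-1.16) and Uvrag (-0.96) were the autophagy genes that fell, of 19 tested.

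The knockout comparisons of macrophages passed for no member in edgeR, and the lean towards lower levels after CCl4 was not seen in the members' median when mice 13 and 14 were left out. Without CCl4, 0 of 39 members differed between genotypes (0.166% of all genes passed, 5 had an unadjusted p under 0.05, and DESeq2 called 1). Ctsd had the lowest adjusted p, at 0.129 (log2 difference 1.08, SE 0.29): it was at 1698, 1562, 1857 and 1214 CPM in knockout mice 4, 5, 20 and 21, all above the 579 to 815 CPM of controls. Gm2a (296, 278, 317 and 287 CPM against 206 to 246 CPM), Gusb and Ctsz were also above every control and Ctsl below, that is 4 members higher and 1 lower against 3.77% and 5.06% of all genes. Hepatocyte marker sums were 3920 to 13702 CPM in these knockout and 18190 to 22471 CPM in control libraries, stellate cell marker sums 955 to 4270.4 against 313 to 807 CPM, and neutrophil marker sums 205 to 335 against 79.5 to 154 CPM. No marker of these 3 lists passed the test, 10 of 10 stellate cell markers lay above 0 (median 1.87), and their part in the difference was not tested. When mice 13 and 14 were left out of the fit, Ctsd passed at 1.10 (edgeR adjusted p = 0.0253). Neither mouse is in this comparison, so leaving them out moves mainly the shared estimate of spread, and the difference stayed near 1.08.

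After CCl4, 0 of 39 members differed between genotypes (0.0647% of all genes passed, 10 had an unadjusted p under 0.05, all lower, and DESeq2 called 1). The median was -0.34 against 0.01 for all genes, and 7 of 39 members lay above 0. Psap had the lowest adjusted p, at 0.199, with 1471, 1514, 2851 and 2849 CPM in knockout mice 13, 14, 17 and 18, all below the 3382 to 7865 CPM of controls. Without mice 13 and 14 the median was 0.01 and 20 of 39 members lay above 0. The 2 libraries held member sums of 12303 and 12180 CPM, against 25582 and 25805 CPM in mice 17 and 18.

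CCl4 in knockout macrophages changed 0 of 39 members in edgeR (0.897% of all genes passed, 4 members had an unadjusted p under 0.05, and DESeq2 called 1), and the interaction with genotype passed for 0 (0.203% of all genes, 9 members with an unadjusted p under 0.05, all lower, and 4 by DESeq2). Ctsd had the lowest adjusted p of the interaction, at 0.0785, with a difference of -1.82 (SE 0.42): its 4 knockout libraries after CCl4 were at 796, 974, 1808 and 2070.0 CPM. Atp6v0a1 was at 58.9, 69.2, 79.6 and 47.9 CPM in the same mice, with an interaction of -1.59 (edgeR adjusted p = 0.158). Without mice 13 and 14 the interaction of Ctsd was -1.37 (edgeR adjusted p = 0.175), and the median of the members' interactions went from -0.57 to -0.26. Recruited macrophage markers were also lower in these knockouts, with sums of 516 to 761 CPM after CCl4, and Gpnmb and F13a1 passed the interaction test at -6.04 and -3.59, with Gpnmb at 38.6, 16.6, 38.3 and 14.6 CPM in knockout mice 13, 14, 17 and 18 against 252 to 945 CPM in controls. Outside the 40, Atp6v0d2, a subunit known from osteoclasts and macrophages, was lower in knockout macrophages after CCl4 (-3.30, SE 0.61, edgeR adjusted p = 0.0476), at 6.76, 3.61, 4.59 and 1.33 CPM in the same mice against 12.3 to 64.8 CPM in controls.

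The CCl4 change of control mice was then compared directly between the cell types, in a fit over all libraries. It differed for 6 of 39 members where 5.01% of all genes passed (1.10% higher and 3.92% lower): Atp6v0a1 (2.24, SE 0.41, edgeR adjusted p = 0.00197), Gm2a (1.44, SE 0.22, 0.00044), Ctsd (1.46, SE 0.39, 0.0253) and Atp6v1h (1.39, SE 0.41, 0.043) changed more upward in macrophages, and Tfe3 (-1.29, SE 0.29, 0.0093) and Laptm5 (-2.82, SE 0.77, 0.0283) more upward in hepatocytes. Gm2a is the member that passed in opposite directions, falling by 0.71 in hepatocytes and rising by 0.75 in macrophages. With library totals alone its hepatocyte fall did not pass (-0.30, edgeR adjusted p = 0.171). Its macrophage rise did not pass with the hepatocyte marker level in the fit (0.44, edgeR adjusted p = 0.146). Without the filter on low counts that rise was at 0.79 (edgeR adjusted p = 0.0612). Tfe3 was at 0.51 in hepatocytes (edgeR adjusted p = 0.107) and -0.76 in macrophages. General leukocyte markers also rose after CCl4 in the control hepatocyte libraries (5 of 10 tested, median 2.25). The part of RNA from other cells in the Laptm5 difference was not tested. With the mouse number as a block Ctsd did not pass (1.52, edgeR adjusted p = 0.069), and within the high file range alone 0 of the 6 passed. When both libraries of conflicting labels were left out, Ctsd (1.46, edgeR adjusted p = 0.079) and Laptm5 (-2.82, 0.0805) did not pass and the other 4 did. Atp6v1h passed in 9, Laptm5 in 12 and Ctsd in 15 of the 19 fits that each left out 1 mouse.

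Across the 8 groups the mean log2 level of the members followed the cell type, and the genes outside the 40 whose group means were most like it, among 8093 genes reaching 20 CPM in some group, were Tyk2 (Pearson's r = 0.9985), Ankrd12 (0.9949), Lcp1 (0.9924), Stxbp2 (0.9921) and Celf2 (0.9902). These r are descriptions over 8 group means that share their libraries. The members least like the mean of all were Ctsl (-0.58), Lamp2 (-0.47) and Atp6v0a1 (0.38), 3 of the 4 genes that were lower in macrophages of control mice without CCl4.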

How the data were processed

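The authors deposited 2 tables of raw counts per gene symbol, 1 of 18 hepatocyte and 1 of 16 macrophage libraries, made with the QuantSeq 3′ FWD kit and 50-base single reads, per the labels' protocols. Per the submitters' processing notes, Trimmomatic 0.39, HISAT2 2.1.0 and GRCm38 (mm10) were used. Which program counted reads, and with which annotation and strandedness, is not given in the sources used here. The members and gene lists were chosen with earlier results of these data known.

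From the counts, genes were filtered with filterByExpr, which kept 9679, 10815 and 12054 genes in the hepatocyte, macrophage and joint fits. The joint table holds 0 for a gene listed in only 1 table. edgeR 4.0.16 (R 4.3.3) with TMM factors and the quasi-likelihood test was fitted over all groups of a table, with Benjamini-Hochberg adjustment over all tested genes and a threshold of 0.05. Levels are TMM-scaled CPM. Within-cell-type levels use each table's own factors, and levels set across cell types use the joint ones. Mean log2 levels use a pseudocount of 1. Any member may be named; full values were given for the called members of lowest p, up to 4 each way per comparison, and for the TFEB family, and from each other list for the called genes of lowest p, up to 2 each way. Alternatives comprised DESeq2 1.42.0, RLE factors, testing unfiltered genes, the file range, the mouse number as a block, and leaving out each library. A fit without a library from outside the comparison changes mainly the shared estimate of spread, and such fits are counted in the tallies. Added after seeing the data were no scaling factors, edgeR's older dispersion estimate, and leaving out the libraries of conflicting labels or of mice 13 and 14, and the hepatocyte marker level as a term. Scripts were tested on simulated data.

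The numbers in the titles were read as mouse numbers, which the labels do not spell out. Of 15 pairs of hepatocyte and macrophage libraries with the same number, 8 had deviations from their group means that correlated above 0.1, and 9 correlated best with their own number. The labels do not say that replicates were separately processed beyond being numbered, so p-values measure the spread between these libraries. Intervals and limits cover counting error only. Gene positions are from GENCODE M21 and promoters from RefSeq.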

Additional observations from a re-analysis of the deposited data

Results flagged for a closer look

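The highest or lowest library of a group stood far from the others (Dixon's test at 95%) in 10 of 266 tests of a member in a group of 4 to 10 libraries, where chance gives about 1 in 20. In hepatocytes these were Hexa in control mouse 2 without CCl4 (18.6 CPM, nearest 19.6), Glb1, a β-galactosidase, in knockout mouse 21 without CCl4 (4.25 CPM, nearest 9.46), and after CCl4 in knockouts Ctsd in mouse 18 (106 CPM, nearest 152) and Atp6v1e1 in mouse 14 (75 CPM, nearest 97.9). In macrophages without CCl4 they were Ctsd in control mouse 7 (579 CPM, nearest 786), Gm2a in control mouse 9 (246 CPM, nearest 212) and Mcoln1, a lysosomal calcium channel, in knockout mouse 20 (11.2 CPM, nearest 7.08). In macrophages after CCl4 they were Ctsl in control mouse 11 (243 CPM, nearest 562), Tfe3 in control mouse 12 (46 CPM, nearest 67.9) and Atp6v0d1 in knockout mouse 18 (101 CPM, nearest 67.8). The Ctsl value of mouse 11 belongs to a library whose labels conflict.

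The CCl4 change of control mice differed between macrophages and hepatocytes by an interaction test in edgeR for 6 members. The differences in log2 change were 2.24 for Atp6v0a1, 1.44 for Gm2a, 1.46 for Ctsd, 1.39 for Atp6v1h, -1.29 for Tfe3 and -2.82 for Laptm5. Leukocyte markers rose with Laptm5 in the hepatocyte libraries, and their part was not tested.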

How the results depend on the processing

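Hepatocyte counts of members passing the test moved as follows. CCl4 in controls (8) gave 5 without a filter and 0 in the high file range. CCl4 in knockouts (5) gave 3 each with RLE factors, no filter, no scaling factors and the older dispersion estimate. Knockout without CCl4 (2) gave 5 with DESeq2, 9 without scaling factors, 1 with the older estimate, and 0 with the file range as a term or in the high range alone. The genotype interaction (0) gave 1 with DESeq2. In macrophages, CCl4 in controls (7) gave 11 with DESeq2. From 0, no filter and DESeq2 gave 1 each for knockout without CCl4 and for CCl4 in knockouts, 2 and 1 for knockout after CCl4, and 4 each for the interaction. No scaling factors gave 1 for the interaction, leaving out mice 13 and 14 gave 1 for knockout without CCl4, and the hepatocyte marker term gave 2 for CCl4 in knockouts. The cell type interaction (6) gave 0 in the high file range. Reversed were Gm2a (0.36) and Ctsl (0.068), macrophages over hepatocytes in controls without CCl4, without scaling factors. Apart from the changes named in the report, the cause was not tested.

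Leaving out each library in turn gave 5 to 11 members for CCl4 in control hepatocytes (5 without mouse 2 or 12, 11 without mouse 19), 2 to 5 for CCl4 in knockout hepatocytes (2 without mouse 18 or 21), 1 to 4 for knockout hepatocytes without CCl4 (1 without mouse 4, 5, 7 or 8, 4 without mouse 6), 0 to 2 for their interaction (2 without mouse 21), 5 to 8 for CCl4 in control macrophages, 0 to 2 for the macrophage interaction (2 without mouse 18) and 3 to 7 for the cell type interaction (3 without mouse 12, 15 or 16). Knockout after CCl4 in hepatocytes and the other 3 macrophage comparisons stayed at 0. Macrophages over hepatocytes gave 28 to 34 and 28 to 33 without CCl4 in controls and knockouts, and 27 to 33 and 25 to 28 after it.

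With the mouse number as a block, 30 and 31 members passed between cell types without CCl4 in controls and knockouts, 30 and 29 after it, and 5 in the cell type interaction. The block lost Lamp1, Tfeb and Gm2a in controls without CCl4, Atp6v0d1 and Ctsk in knockouts without CCl4, Lamp1, Tfe3 and Atp6v0c in controls after CCl4, and Ctsd in the interaction. In hepatocyte libraries of low depth, 3 counts reach several CPM, and Ctsk, Mcoln1 and Atp6v0c were below the filter of the hepatocyte fit.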
